A study of Mus musculus with 2 samples.

Results

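The genes described here are 10 transcription factors and cofactors known to act for or against brown and beige fat identity: Prdm16, Ebf1, Ebf2, Ebf3, Zfp516, Tbx1, Tbx15, Irf4, Tle3 and Nrip1. They were taken by name from 19938 named genes, and each had 1 probe set of its own. The tissue was inguinal white fat, a subcutaneous depot in the groin, of male C57BL/6J mice. The ApoE-KO group lacked apolipoprotein E, a lipoprotein ligand. The double-knockout group, labelled DKO, lacked apolipoprotein E and also uncoupling protein 1 (UCP1), the mitochondrial protein that lets thermogenic fat cells turn fuel into heat. The ApoE deletion was thus common to both groups, the deletions were not limited to fat, and no group had intact ApoE. All mice were kept at 23 °C and ate a high-fat diet for 9 weeks, starting at 9 weeks of age. RNA of 3 littermates per genotype was pooled and hybridised to 1 Affymetrix array, which gave 2 arrays in all, so the data hold no replicate, no difference could be tested and each is described by its size.

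Brown and beige adipocytes burn fuel for heat, and their identity is set by a small network of nuclear proteins. EBF2 opens chromatin at brown fat genes and recruits PPARγ, and PRDM16 then joins C/EBPβ, PPARγ and PGC-1α there to switch the thermogenic genes on and muscle or white fat genes off. ZFP516 and IRF4 act with PRDM16 and PGC-1α on Ucp1, whereas the corepressors TLE3 and NRIP1 (also called RIP140) hold the same genes down in white adipocytes.

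Each value is a deposited probe set intensity on a linear scale, and each difference is log2 of the array labelled DKO minus log2 of the array labelled ApoE-KO. Over the 35557 probe sets, the median was 157.65 for ApoE-KO and 152.1 for DKO. An expression floor was set at an intensity of 196.9, the median over named probe sets. It was reached by 9891 genes, as the mean of both arrays on the log2 scale. This floor was a working rule and no detection limit. The probe set of Ucp1 read 219 on the ApoE-KO array and 2230 on the DKO array. That opposes the labels if its probes sit within the deletion, and no source used here gives their place in the gene. Apoe read 589 and 502. Every direction below therefore rests on the labels, and ApoE-KO and DKO stand for the arrays so labelled. Mature adipocyte markers such as Adipoq were present in both arrays (summed intensity of 8 markers 42575 in ApoE-KO and 44238 in DKO), and the 13 skeletal muscle markers were all lower in DKO, with a summed intensity of 34488 in ApoE-KO and 1852 in DKO. In whole tissue, fewer cells of a type and less RNA per cell cannot be told apart. All gene and marker lists used below were chosen with earlier results of these data known, so their counts are description only. Of all genes above the floor, 51.4% were lower in DKO.

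No lineage factor reached a 2-fold difference between the arrays, and those that differed most were lower in DKO. Of the 10 genes, 7 were lower and 3 higher, where 51.4% of all genes above the floor were lower. On the log2 scale, 6 of the 10 lay within 0.25 of no difference. The quartiles of all genes above the floor were -0.19 and 0.20. The range of the 10 genes ran from -0.77 (Tbx15) to 0.13 (Prdm16). The count of genes with an at least 2-fold difference was 0 of the 9 above the floor, and among all genes above the floor 3.49% reached 2-fold in either direction, 2.79% upward and 0.698% downward. At 1.5-fold, 2 of the 9 (Tbx15 and Nrip1) were lower and 0 higher, against 3.73% and 7.57% of all genes above the floor. Irf4, the 1 gene whose mean lay below the floor, was also more than 1.5-fold lower. Its geometric mean intensity of 195.7 was only just under the floor of 196.9. The median difference of the 10 genes was -0.21, and that of all named genes was -0.01.

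**Figure D1:**
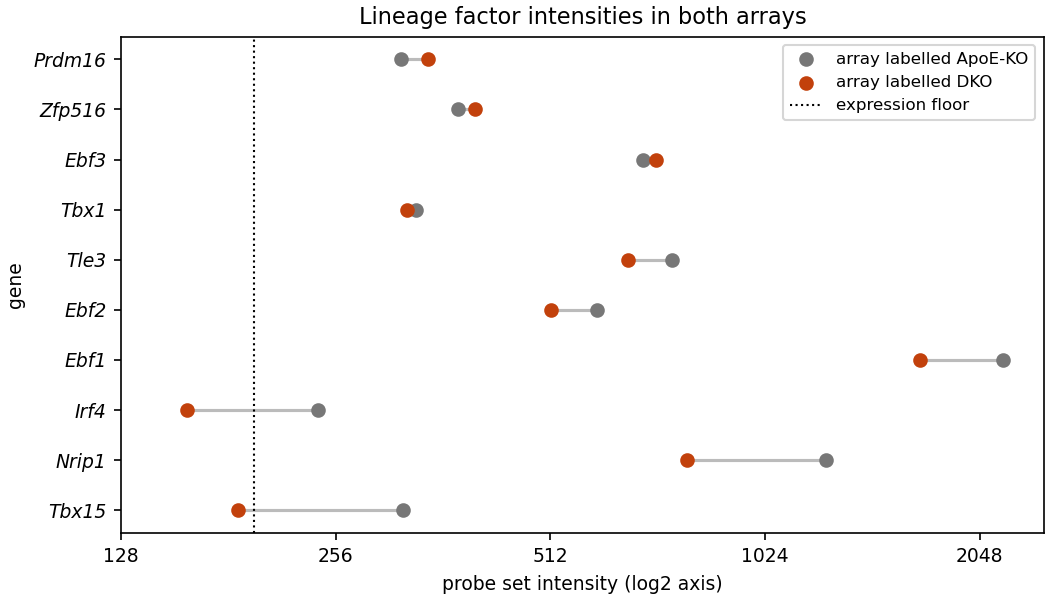
Probe set intensity (log2 axis) of each of the 10 lineage factors in the array labelled ApoE-KO (grey) and the array labelled DKO (orange), 1 pooled array each, ordered by difference; the dotted line is the expression floor of 196.9. Prdm16, Zfp516, Ebf3 and Tbx1 have nearly coincident points, and Tbx15, Nrip1 and Irf4 have the widest gaps, each lower in the array labelled DKO.

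Prdm16 encodes the zinc finger coregulator that drives brown and beige differentiation. Its intensity was 316 in ApoE-KO and 345 in DKO, a difference of 0.13 or 1.09-fold. This was the largest upward difference of the 10 genes, and 32.3% of genes above the floor had a difference at least as high. Zfp516, which encodes a cold-inducible activator of Ucp1, read 380 and 401, a difference of 0.08. Ebf2, the pioneer factor that marks brown and beige precursors, read 596 in ApoE-KO and 513 in DKO, a difference of -0.21. Of the genes above the floor, 22.6% were as low as Ebf2 or lower. Prdm16 and Zfp516 were thus slightly higher and Ebf2 slightly lower.

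The other measured early B-cell factors also work in fat cell formation. Ebf1, which directs adipocyte differentiation and, in bone marrow, commitment to the B lymphocyte lineage, read 2207 in ApoE-KO and 1686 in DKO. Its difference of -0.39 (1.31-fold lower) was reached or passed downward by 9.52% of genes above the floor. Ebf3 read 690 and 721, a difference of 0.06. The 3 paralogues thus had differences of -0.39 (Ebf1), -0.21 (Ebf2) and 0.06 (Ebf3), and Ebf4, their remaining relative, lay below the floor in both arrays with 117 and 113. B cell markers were lower in the same array: 9 of 9 measured markers, with a median difference of -1.08, a summed intensity of 7701 in ApoE-KO and 3790 in DKO, and 0 markers at 0 in either array. Among them Ms4a1 (CD20) had a difference of -1.16, Fcer2a (CD23) of -1.15 and Cr2 of -1.11. The part of B cells in the Ebf1 difference was not tested. Adipose progenitor markers, given below, were lower too, and their part in the differences of the 3 paralogues was not tested either.

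Irf4 encodes an interferon regulatory factor that is induced by cold in brown adipocytes, works there with PGC-1α, and also controls lymphocytes and macrophages. It read 242 in ApoE-KO and 158 in DKO, a difference of -0.61 or 1.53-fold. The DKO value was under the floor, and replacing it by the floor gave a difference of -0.30. Immune markers were lower as well. T cell markers were lower in 8 of 8, with a median of -0.52 and a summed intensity of 4635 in ApoE-KO and 3140 in DKO, led by Cd2 (-0.69), Cd3g (-0.65) and Cd8a (-0.64). Macrophage and dendritic cell markers were lower in 9 of 9, with a median of -0.57 and sums of 8858 and 5920, led by Cd163 (-0.72), Cybb (-0.71) and Clec10a (-0.67). No T cell or macrophage marker was at 0 in either array. Of the other interferon regulatory factor genes, Irf7, the interferon-induced member, stood at -0.58 (956 to 639) and Irf8, a myeloid and B cell factor, at -0.56 (563 to 381). The part of immune cells in the Irf4 difference was not tested.

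The T-box genes had unlike differences. Tbx1, used as a marker of beige adipocytes, read 332 in ApoE-KO and 322 in DKO, a difference of -0.05 that turned to 0.01 when both arrays were centred on their medians. Tbx15, which is expressed in fat depots and fast muscle fibres and is needed for brown and beige differentiation in culture, read 318 and 187. Its difference of -0.77 (1.70-fold lower) was the lowest of the 10 genes, and 1.41% of genes above the floor were as low or lower. The DKO value was just under the floor, and replacing it by the floor gave -0.69. Adipose progenitor markers were lower in 8 of 8, with a median of -0.52 and a summed intensity of 21408 in ApoE-KO and 15137 in DKO, led by Pi16 (-1.13), Dpp4 (-0.77) and Cd34 (-0.57). The muscle markers, with a median of -4.24, included Atp2a1 (-5.25), Myh4 (-5.22) and Actn3 (-4.71), and 12 of the 13 were below the floor in DKO and 0 of 13 in ApoE-KO. The part of muscle and of progenitors in the Tbx15 difference was not tested. Among other T-box genes above the floor, Tbx5 had the largest difference and was higher (171 to 241, 0.50, or 0.29 with the floor).

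The corepressors were both lower. Nrip1, whose product silences Ucp1 and oxidative genes in white fat, read 1245 in ApoE-KO and 797 in DKO. Its difference of -0.64 (1.56-fold lower) was matched or exceeded downward by 2.74% of genes above the floor, and both intensities lay well above the floor. Tle3, which opposes PRDM16 at PPARγ-bound genes and favours white fat genes, read 759 and 658, a difference of -0.21 that 23.4% of genes above the floor reached or passed downward. Of its family, Tle4, which encodes a related Groucho corepressor, was lower (386 to 297, -0.38), and Tle5, a short relative that lacks the family's WD repeats, was higher (1442 to 2074, 0.52). All of these differences were below 2-fold. Markers of muscle, immune cells and progenitors, given above, were lower too. Their part in the differences of Nrip1 and Tle3 was not tested.

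**Figure D2:**
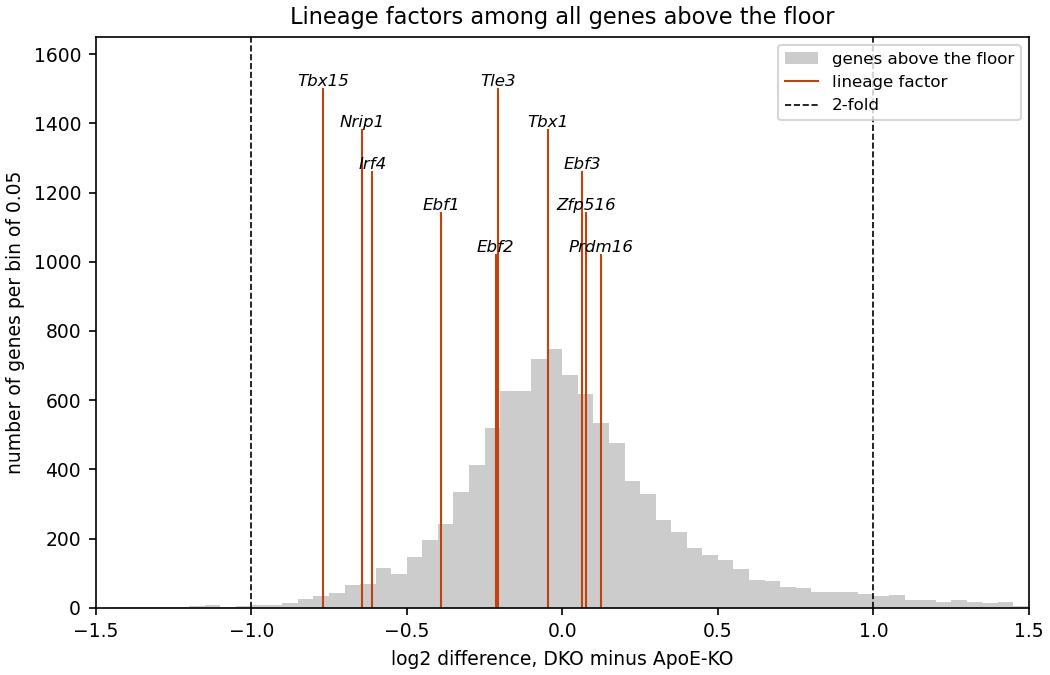
Number of genes above the floor (grey, bins of 0.05) by log2 difference, array labelled DKO minus array labelled ApoE-KO, with an orange line at the difference of each lineage factor; line heights are set for legibility, dashed lines mark 2-fold, and 106 genes lie beyond 1.5 in either direction. All 10 lines fall between the 2-fold marks, and Tbx15, Nrip1 and Irf4 stand in the lower tail. The mean of Irf4 lay below the floor, so Irf4 is not counted in the grey bars. With the floor in place of its DKO value, its difference was -0.30.

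Each lineage factor was read by a single probe set, so agreement between probe sets could not be examined for them. Among 437 other genes with exactly 2 probe sets above the floor, the differences of the pair lay a median of 0.08 apart, and 90% of pairs lay within 0.28. A gap above 0.6 was found in 1.83% of pairs. This describes reading the same pooled RNA on the same arrays and says nothing of the spread between mice or between repeated arrays. The value of 0.28 is thus no error limit for a difference between the arrays. The differences of Prdm16, Ebf2, Ebf3, Zfp516, Tbx1 and Tle3 were smaller than 0.28, and those of Tbx15, Nrip1, Irf4 and Ebf1 were larger. Unlike these pairs, Irf4 had a mean below the floor. With the floor its difference was -0.30, close to 0.28 in size.

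Genes that these factors are known to control are given beside them as a description. The brown fat targets were listed when they were already known to be higher in these arrays, so their count was fixed by the choice and supports nothing. All 10 measured exceeded 2-fold upward in DKO, with a median of 2.63, where 2.79% of all genes above the floor did. Elovl3, a fatty acid elongase gene of cold-exposed brown fat, had intensities of 67.2 and 2009, a difference of 4.90 (3.35 with the floor). Fabp3, for a fatty acid-binding protein, differed by 3.59, Cox7a1, for a cytochrome c oxidase subunit, by 3.23, Dio2, for the enzyme that activates thyroid hormone, by 2.97 (2.26 with the floor) and Cidea, for a lipid droplet protein, by 2.90. The lowest of the 10 was Cox8b at 1.96. Many of these genes are also targets of other factors. Of 5 measured white fat genes, 4 were lower, against 51.4% of all genes above the floor, and the median was -0.12. The count at 2-fold was 0, against 3.49% of all genes above the floor in either direction. Nnat, for neuronatin, had the largest difference (-0.81), followed by Agt, for angiotensinogen (-0.49), while Retn (-0.12), Psat1 (-0.04) and Lep (0.04) lay near 0.

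The partner proteins of the factors included a few genes that were higher and many near 0. Of 13 measured genes for partners and regulators of PRDM16 and EBF2, 11 lay above the floor, and of these 1 was at least 2-fold higher and 0 lower, where 2.79% and 0.698% of all genes above the floor were. The median of the 13 was -0.03. The gene past 2-fold was Ppargc1a, which encodes PGC-1α, the coactivator bound by PRDM16 and IRF4, and it read 244 and 660 (1.44). It was followed by Cebpb, for the C/EBPβ protein with which PRDM16 starts brown differentiation (1004 to 1704, 0.76), and by Pparg, for the nuclear receptor of all adipocytes (2181 to 3026, 0.47). Cul2, part of the ubiquitin ligase that degrades PRDM16, stood at 0.27, and Kdm1a, a histone demethylase that works with ZFP516 and PRDM16, at -0.20. The methyltransferase gene Ehmt1 (-0.19), the corepressor genes Ctbp1 (-0.05) and Ctbp2 (0.01), the Mediator gene Med1 (-0.05) and the chromatin remodeller gene Smarca4 (-0.09), named after their values were seen, lay closer to 0.

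Other nuclear factors with a role in brown fat were mostly within 1.5-fold, as were most genes above the floor. Among 12 genes reported to favour brown fat, 8 were lower and 4 higher, and the median was -0.06. Of all genes above the floor, 51.4% were lower. Of the 8 above the floor, 0 reached 1.5-fold in either direction, against 11.3% of all genes above the floor. Zbtb16 (1.493-fold lower) fell just short of it. The largest above the floor were Zbtb16 (1561 to 1045, -0.58), the RNA-binding protein gene Ewsr1 (-0.36), Zbtb7b (0.33) and the homeobox gene Hlx (0.30). Ybx1 followed at -0.09. Plac8, whose mean lay below the floor, had the largest difference of the 12 (204 to 129, -0.66, or -0.05 with the floor). It was named after its value was seen. Among 13 genes reported to oppose brown fat, 9 were lower and 4 higher, against the same 51.4% lower of all genes, with a median of -0.15. Foxp1, a forkhead repressor, read 1249 and 770 (-0.70, 1.62-fold lower). It was the 1 gene of this list past 1.5-fold, of 12 above the floor, against the same 11.3% of all genes. Rbl1, for the pocket protein p107, followed at -0.48, Hoxc8 at -0.35, Foxo1 at -0.34 and Hoxc10 at 0.22. Zfp423, which restrains EBF2 in white adipocytes and was chosen after its value was seen, had a difference of -0.15 (991 to 894). Over 37 measured relatives of the 10 genes, the median was -0.03. Among the 17 above the floor, 0 reached 1.5-fold in either direction, against 11.3% of all genes above it. Irf7 (1.497-fold lower) and Irf8 (1.479-fold lower) fell just short of that mark. The partner and relative medians had no settled sign: that of the partners turned to 0.02 with median centring, 0.02 with loess and 0.0054 with the mean of probe sets, and that of the relatives to 0.02 with median centring and 0.00056 with quantile normalization.

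**Figure D3:**
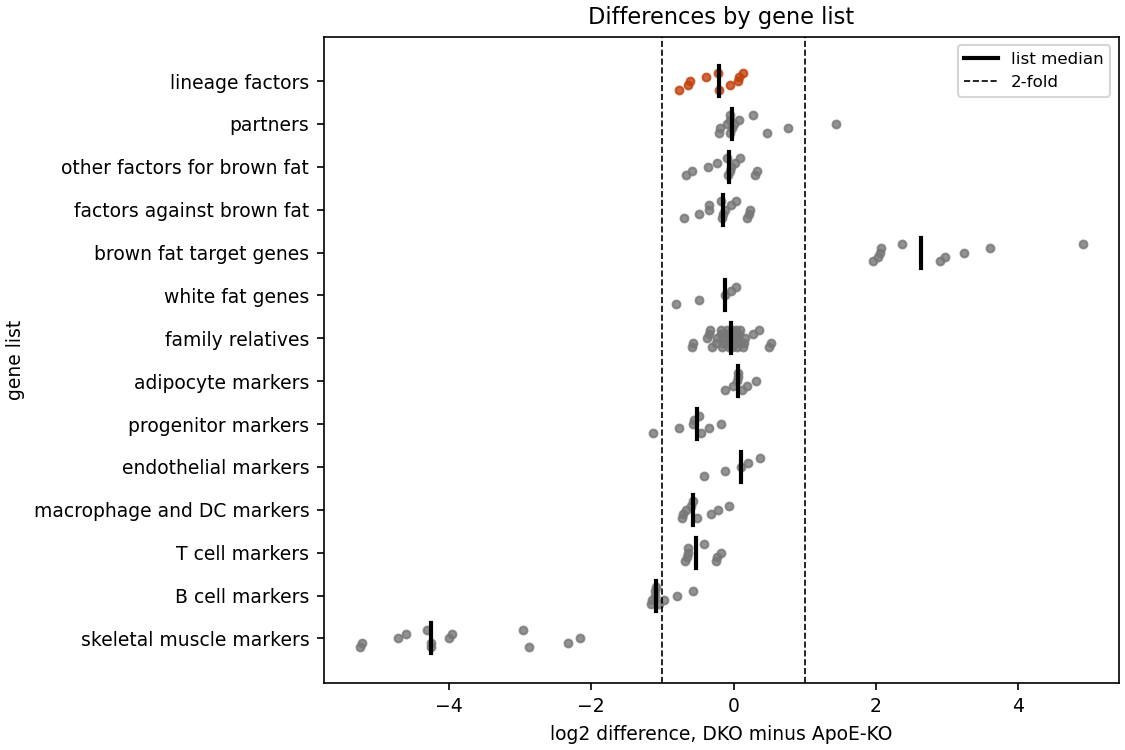
Log2 difference, array labelled DKO minus array labelled ApoE-KO, of every measured gene (points, spread vertically for legibility) in the lineage factors (orange) and in each other gene list (grey), with the list median as a black bar and dashed lines at 2-fold. The 10 lineage factors lie between -0.77 and 0.13. The 10 brown fat targets lie between 1.96 and 4.90, but they were listed when already known to be higher in these arrays. Their place was thus fixed by the choice. The other lists were also chosen with earlier results of these data known.

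Promoters were read for the letters that EBF proteins bind, as a description. RefSeq promoters (GRCm38.p6), each 250 bases before to 50 after a start, were matched by symbol for 7 of the 10 factors (10 promoters) and 8 of the 11 listed brown fat targets. Ebf2, Zfp516, Tbx15, Cidea, Elovl3 and Cpt1b had no entry. The EBF palindrome CCCNNGGG, which covers both strands since it is its own reverse complement, was held by 13.7% of all 32851 promoters, by 1 of the 10 factor promoters (Ebf3) and by 1 of the 8 target promoters (Ppara). Both windows with a match are given 5′ to 3′ on the gene's strand, up to the start, with the matched letters in capitals, because they are the places in these promoters where the letters of a factor measured here stand before a lineage factor or a target.
Ebf3 (chr7:137314446-137314695, - strand): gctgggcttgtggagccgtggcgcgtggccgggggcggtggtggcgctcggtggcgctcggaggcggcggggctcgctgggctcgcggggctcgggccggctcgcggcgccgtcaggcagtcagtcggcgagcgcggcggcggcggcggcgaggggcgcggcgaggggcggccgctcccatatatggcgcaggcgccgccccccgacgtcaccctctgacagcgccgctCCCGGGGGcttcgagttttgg
Ppara (chr15:85735526-85735775, + strand): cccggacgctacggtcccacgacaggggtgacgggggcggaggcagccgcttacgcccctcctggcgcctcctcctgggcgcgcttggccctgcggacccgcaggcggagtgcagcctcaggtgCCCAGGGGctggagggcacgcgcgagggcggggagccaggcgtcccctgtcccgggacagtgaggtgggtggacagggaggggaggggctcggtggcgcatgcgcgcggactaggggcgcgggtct
The match begins 21 bases before the start in Ebf3 and 126 in Ppara. Ebf3 had a difference of 0.06, and Ppara, for a fatty acid-sensing nuclear receptor, one of 2.06 (243 in ApoE-KO and 1009 in DKO). A match is a run of letters and not a measured site, and no match says only that these letters are not in the window.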

How the data were processed

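Inguinal white adipose RNA of 3 pooled mice per genotype was measured on 1 array each. The authors deposited a linear intensity per probe set, and no source used here gives the summarisation, background correction or scaling. Per the labels' protocols, Trizol-extracted RNA was turned into fragmented, biotin-labelled DNA. Log2 was taken with no pseudocount. Probe sets were named by the platform annotation and updated through RefSeq: 21789 had 1 symbol, 1621 several (left out) and 12147 were unnamed here. A gene with several probe sets was given by the brightest. The floor was the median of mean log2 intensity. With 1 array per group no test was possible, and the number of arrays limits precision.

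The members and the 13 other lists (6 gene, 7 marker; 161 entries, 150 measured; the others were not analysed here) were chosen with earlier results of these data known. Named were all members, Ucp1, Apoe, and the largest differences above the floor, up to 5 per gene list and 3 per marker list; others are said to be named after their values were seen, as were the examples of Ebf4, Cox8b and Ppara. Quantile, median and loess (span 0.4) scaling, an offset of 50, the mean of probe sets, floors and 1.5-fold were alternatives. Calculations used Python 3.11.15, pandas 2.3.3 and statsmodels 0.14.6. They were tested on simulated data with planted shifts larger than the difference of any lineage factor. That test does not bear on differences as small as those of the factors.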

Additional observations from a re-analysis of the deposited data

How the results depend on the processing

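Under 6 alternatives per gene (quantile, median and loess scaling, an offset of 50, the mean of probe sets and the floor in place of lower intensities), 9 of the 10 lineage factors kept their direction, and Tbx1 turned from -0.05 to 0.01 with median centring. Only the quantile, median and loess scalings could turn a direction. Each factor had 1 probe set, so the mean of probe sets returned the main value, and an offset or a floor cannot reverse a sign. The ranges were -0.77 to -0.64 for Tbx15, -0.68 to -0.59 for Nrip1, -0.61 to -0.30 for Irf4 and 0.11 to 0.18 for Prdm16. The median of all named genes shifted from -0.01 to 0.04 with median centring. The count past 2-fold was 0 in each direction under every scaling and floor, including the 5 members above a floor at percentile 75, and 2 were lower at 1.5-fold. A value was taken as moved when it shifted by 0.1 or more. With an offset of 50 the median became 2.37 for brown fat targets, -0.98 for B cell markers and -3.72 for muscle markers. With the floor as lowest value it became 2.31 for brown fat targets and -3.46 for muscle markers, and over members above the floor it became -0.64 for T cell markers. An offset or a floor shrinks differences of dim genes by construction. No paired analysis was possible because each group had 1 array. Without a detection call, values near the floor (Irf4, Tbx15) cannot be told from background.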
